A study of Mus musculus with 20 samples.

Results

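The genes described here encode the mitochondrial carrier family and the uncoupling proteins. They are the genes whose symbol begins with Slc25a and a number, together with Ucp1, Ucp2 and Ucp3. Slc25a15 and Slc25a20 were left out by that rule. The rule found 47 of the 20914 genes in the count table, and 41 of the 47 had enough fragments to be tested. RNA came from 20 male mice of a strain labelled LiB12cKO, sampled at 8 weeks, and was taken from the left lateral lobe of the liver. All mice carried 2 floxed copies of Hsd17b12, a reductase of the cycle that lengthens fatty acids. The 10 knockout (KO) mice had the genotype HSD17B12lox/lox;Alb-CreCre/WT, in which the albumin promoter drives Cre recombinase in hepatocytes, and the 10 wild-type (WT) mice had HSD17B12lox/lox;Alb-CreWT/WT. Cre was present in all KO and absent from all WT mice, which means that Cre itself and the loss of the enzyme cannot be told apart.

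Most members of the mitochondrial carrier family are small proteins of the inner mitochondrial membrane. These exchange metabolites, nucleotides, cofactors and ions between the matrix and the cytosol. Most are built from repeats of one domain and alternate between a state open to each side. In hepatocytes they link mitochondria to the urea cycle, glucose production, fatty acid synthesis and haem synthesis. Uncoupling proteins belong to the same family. UCP1 returns protons to the matrix in brown fat and releases heat, while UCP2 and UCP3 have other, less settled transport roles. UCP2 RNA is known from macrophages and from hepatocytes of fatty liver.

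The fragments assigned to genes numbered 16693195 to 29124124 in a mouse. Hsd17b12 lay between 44.2 and 51.3 CPM (a count scaled to the depth of its library) in KO mice and between 123 and 177 CPM in WT mice, with no overlap. CPM were scaled by TMM factors, which assume that most genes do not differ. Those factors averaged 1.18 in KO and 0.851 in WT, so the scaling bears on small differences. With library size in place of TMM, the median over all 13670 tested genes moved by 0.47 on the log2 scale, from -0.02 to 0.44. The defining hepatocyte markers were present in every mouse, with a summed level of 53343 to 68086 CPM in KO and 83387 to 119202 CPM in WT. Skeletal muscle markers summed to 532 CPM in the mouse WT_389 and 137 CPM in WT_441, to 6.01 CPM in WT_406, and to at most 1.81 CPM in the other 17 mice.

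The sequences upstream of the 3 members called higher by at least 2-fold, Ucp2, Slc25a24 and Slc25a30, are shown because these genes carry the largest rises of the family. Each is the run of 250 bases before a RefSeq transcript start on GRCm38.p6, the assembly of mm10. Ucp2 is from chr7:100493108-100493357 on the plus strand, Slc25a24 from chr3:109122899-109123148 on the plus strand and Slc25a30 from chr14:75787038-75787287 on the minus strand. Capitals mark matches on either strand to any of the motifs given after the sequences.

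Ucp2: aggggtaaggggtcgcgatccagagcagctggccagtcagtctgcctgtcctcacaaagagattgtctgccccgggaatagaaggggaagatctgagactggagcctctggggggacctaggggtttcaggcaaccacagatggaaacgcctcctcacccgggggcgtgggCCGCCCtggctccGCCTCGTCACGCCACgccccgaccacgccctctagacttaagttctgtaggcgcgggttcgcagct

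Slc25a24: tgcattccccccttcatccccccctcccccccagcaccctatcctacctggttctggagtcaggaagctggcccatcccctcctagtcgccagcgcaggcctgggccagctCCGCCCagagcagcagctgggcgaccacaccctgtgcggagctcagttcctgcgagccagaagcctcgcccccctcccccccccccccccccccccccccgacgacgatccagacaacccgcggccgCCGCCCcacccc

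Slc25a30: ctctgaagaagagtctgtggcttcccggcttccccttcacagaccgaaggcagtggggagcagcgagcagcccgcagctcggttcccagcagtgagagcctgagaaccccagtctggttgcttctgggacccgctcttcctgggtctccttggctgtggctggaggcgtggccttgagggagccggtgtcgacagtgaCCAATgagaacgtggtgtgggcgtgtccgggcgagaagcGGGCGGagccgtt

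The GC box GGGCGG was found in all 3 windows, in 30 of 45 member promoters and in 32.7% of the 32851 RefSeq promoters of the same length. CCAAT was found upstream of Slc25a30, in 21 of 45 member promoters and in 33.8% of all promoters. The antioxidant response element core TGACNNNGC was found upstream of Ucp2, in 10 of 45 member promoters and in 10.2% of all promoters. In Ucp2 that match overlaps one to the sterol response element letters TCACNCCAC. Those letters are in 2 of 45 member promoters and 1.05% of all promoters. The nuclear receptor half-site AGGTCA (14.0% of all promoters), the E-box CACGTG (6.02%) and the amino acid response element TGATGNAAT (0.816%) had no match in the 3 windows. A direct repeat of the half-site spaced by 1 base (DR1) had no match among the 45 promoters of the 36 members that the RefSeq table holds, and is in 0.0335% of all promoters. These are matches of letters only.

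In KO livers 8 of the 41 tested members were higher and 17 were lower (edgeR quasi-likelihood test, adjusted p under 0.05 over all tested genes). Of all tested genes 28.2% were called higher and 31.0% lower, 59.2% in all. Of the members 3 were called higher and 1 lower by at least 2-fold, against 7.69% and 4.10% of all tested genes. The median log2 fold change was -0.24 over the members and -0.02 over all tested genes. With library size scaling 20 members were higher and 2 lower, against 68.4% and 6.71% of all tested genes. The members' median minus that of all genes was -0.21 with TMM. A change of scaling moves all genes nearly alike and so cannot test this distance. Below the all-gene median lay 26 of the 41 members with TMM and 28 with library size. The call and direction were the same with both scalings for 10 members, the 8 higher ones and the lower Slc25a21 and Slc25a29. Library size scaling moved the all-gene median up by 0.47 on the log2 scale. Members higher with TMM were thus bound to stay higher, and their agreement is no test of those calls. In bulk RNA, fewer cells of a type and less RNA per cell cannot be told apart.

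**Figure D1:**
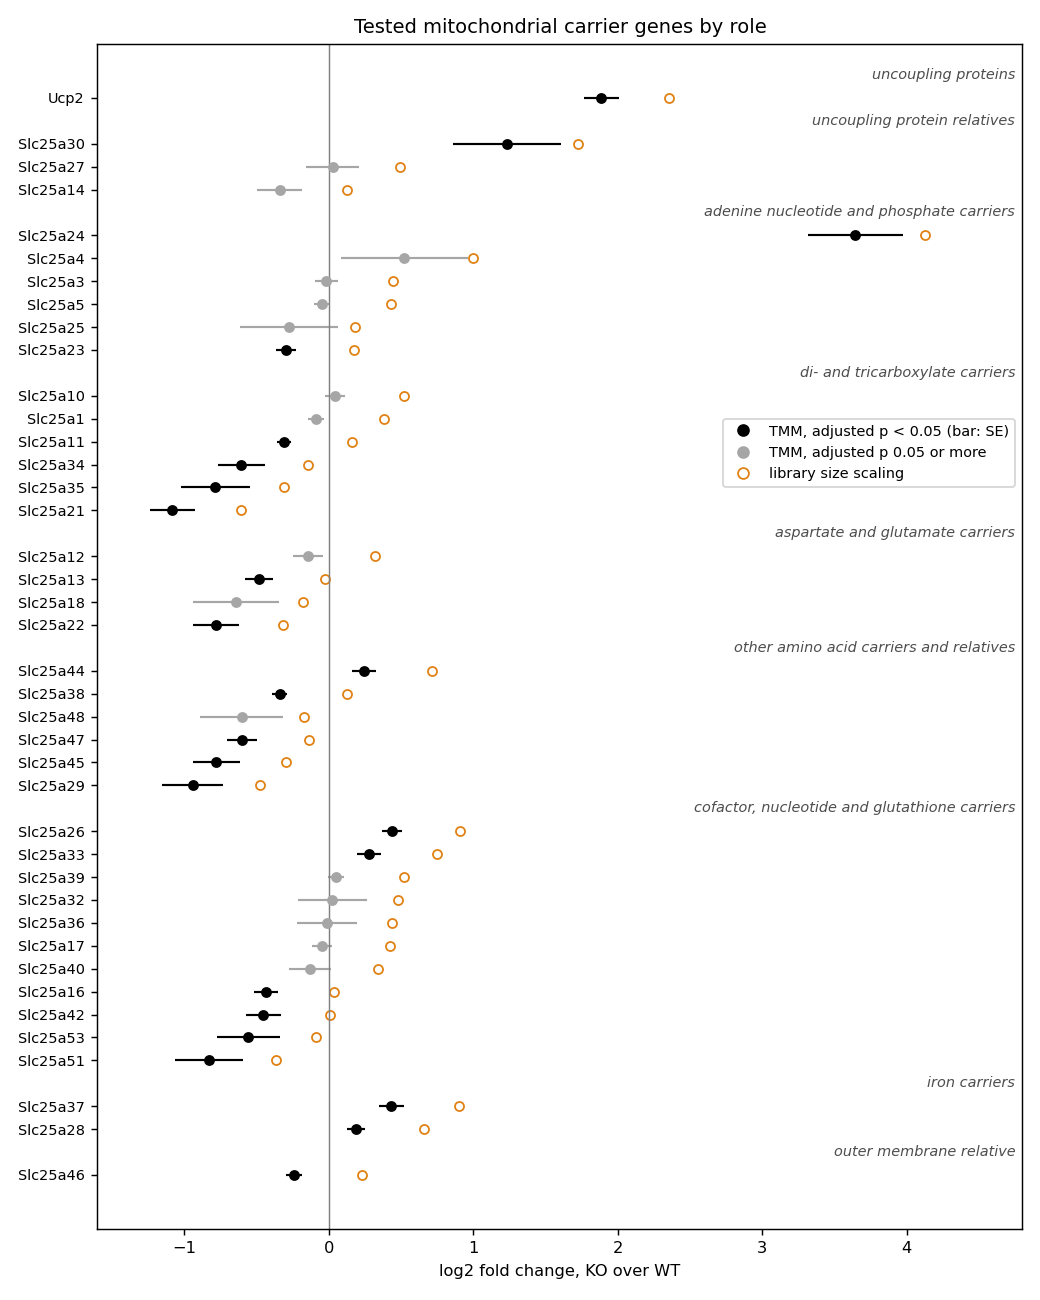
Log2 fold change of KO over WT for 40 of the 41 tested members, grouped by role, with 10 mice per genotype. Filled points are the TMM-scaled edgeR values with their SE (black where the adjusted p was under 0.05, grey elsewhere), and open points are the same fit with library size scaling. Ucp2, Slc25a24 and Slc25a30 lie at 1.23 or above with TMM, and only Slc25a21 lies below -1.

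Ucp2 had the smallest adjusted p of the tested members. Its level ran from 17.3 CPM through a median of 24.6 to 30.2 CPM in WT mice, and from 62.4 through 88.8 to 129 CPM in KO mice (Entrez gene 22228, mm10 chromosome 7, 100493345 to 100502173, 8 exon blocks). Every KO mouse was above every WT mouse, a separation that 7.10% of tested genes showed and that 2 members had. The rise was 3.70-fold, a log2 fold change of 1.89 ± 0.12 (SE) with an edgeR adjusted p of 5.85e-11. With library size scaling the log2 fold change was 2.35.

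Ucp3 and Ucp1 were too low for the test. Ucp3, which is best known from skeletal muscle, had 128 fragments in the WT mice together and 113 in the KO mice. In WT it was at 0 in 6 mice, at 5 and 4 fragments in another 2, and at 103 and 16 fragments in WT_389 and WT_441, the same mice that held the muscle markers. In KO it had between 2 and 26 fragments in every mouse. A count of 0 allows a level of up to 0.134 to 0.190 CPM in those 6 mice, counting 3 fragments as the limit and covering counting error only. Tested without the filter, the log2 fold change was -0.27 (edgeR adjusted p = 0.84) with all mice and 2.85 (adjusted p = 0.00519) without WT_389 and WT_441. Those 2 mice were left out after their marker values had been seen. The gene lies 6912 bases from Ucp2. Ucp1 had 1 fragment in each genotype over all mice.

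Among the relatives of the uncoupling proteins, Slc25a30 (kidney mitochondrial carrier protein 1) rose. In WT it ran from 8.61 CPM through a median of 16.3 to 80.2 CPM, and in KO from 27.9 through 46.9 to 97.5 CPM. The genotypes overlapped: WT_409, at 80.2 CPM, lay above 8 of the 10 KO mice, while the next WT mouse was at 29.0 CPM. The log2 fold change was 1.23 ± 0.37 (edgeR adjusted p = 0.00839), 2.35-fold. Slc25a14 and Slc25a27, which are expressed mainly in brain, had log2 fold changes of -0.34 and 0.03 and did not pass the test with TMM. With library size scaling Slc25a14 was not called, at 0.13, and Slc25a27 was called higher, at 0.49.

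**Figure D2:**
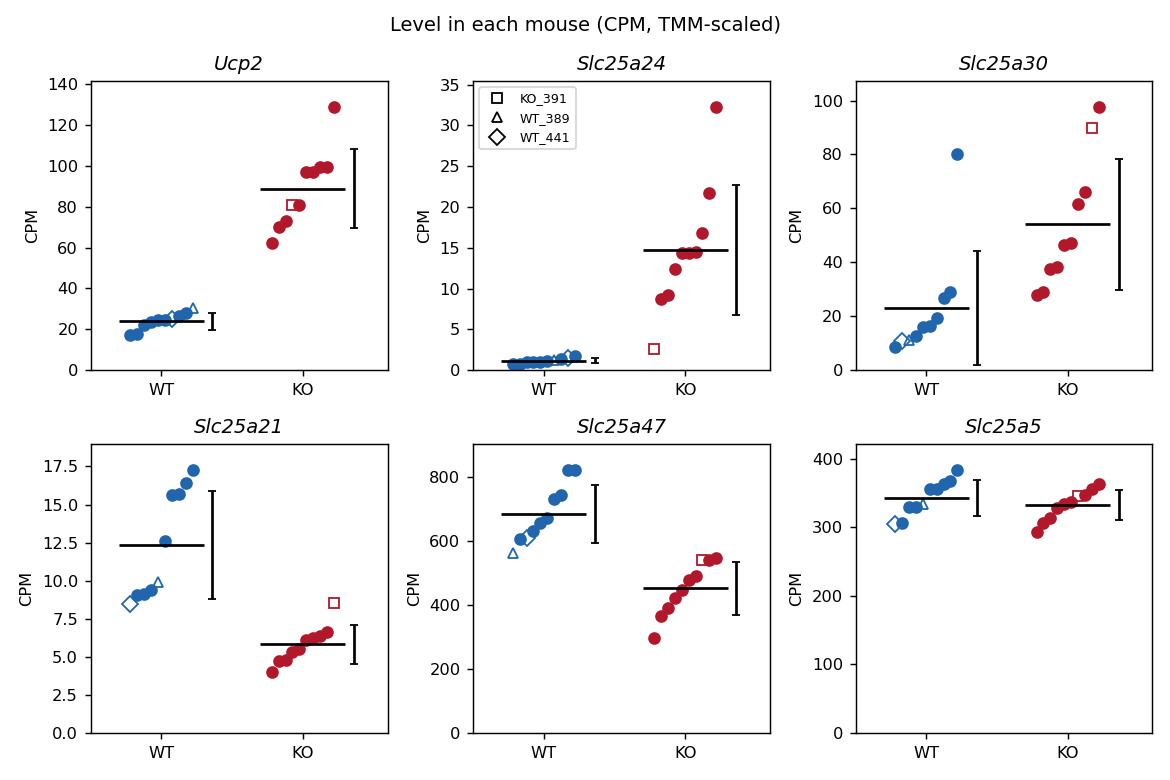
Level in each mouse, in TMM-scaled CPM, for 6 members: the 4 called with a change of at least 2-fold, and Slc25a47 and Slc25a5, the 2 highest members in WT. Each point is a mouse, horizontal lines are means and bars SD (n = 10 each), and open symbols mark KO_391, WT_389 and WT_441. Ucp2, Slc25a24 and Slc25a47 show no overlap of the genotypes, Slc25a5 overlaps throughout, and KO_391 is the lowest KO mouse for Slc25a24.

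The adenine nucleotide and phosphate carriers held the largest change of the family, in a member that is scarce in WT liver. Slc25a24 encodes a calcium-regulated carrier that exchanges ATP-Mg for phosphate and so sets the size of the matrix adenine nucleotide pool (Entrez gene 229731, mm10 chromosome 3, 109123149 to 109168409, 10 exon blocks). It ran from 0.700 through a median of 1.09 to 1.75 CPM in WT, and from 2.62 through 14.4 to 32.2 CPM in KO. All KO mice lay above all WT mice, and KO_391 at 2.62 CPM stood well below the next KO mouse at 8.78 CPM. Counts were 12 to 38 fragments per WT mouse and 66 to 690 per KO mouse. The fold was 12.5, with a log2 fold change of 3.64 ± 0.33 (edgeR adjusted p = 1.03e-08). The sister carrier Slc25a23 fell slightly with TMM, by 0.29 on the log2 scale (edgeR adjusted p = 0.00109), and was called higher with library size scaling, at 0.18. Slc25a25, the third calcium-regulated form in liver, had a log2 fold change of -0.27 ± 0.34 and did not pass the test. Its level varied widely in both genotypes, from 41.3 to 357 CPM in WT and 56.2 to 366 CPM in KO. In Slc25a25, 10.2% of the length is shared with Naif1 on the other strand.

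Within a mouse the ratio of 2 carriers is free of library scaling, and 11 pairs of related carriers were compared this way. The pairs were chosen after the members' values had been seen. The log2 ratio of Slc25a24 to Slc25a23, per base of transcript, was -7.81 ± 0.49 in WT and -4.06 ± 1.08 in KO (mean ± SD, n = 10 each). The difference was 3.75, with no overlap and an adjusted p of 0.00033 over the 11 pairs (two-sided permutation test of 100000 resamples). Slc25a24 nevertheless remained the scarcer transcript of the pair in every KO mouse, with a highest ratio of -2.50. The ratio of Slc25a25 to Slc25a23 differed by 0.14 (adjusted p = 0.756).

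The major ADP/ATP carrier of liver, Slc25a5, did not pass the test with TMM. It ran from 305 through 345 to 384 CPM in WT and from 294 through 335 to 363 CPM in KO, with full overlap. Its log2 fold change was -0.05 ± 0.06 with TMM (edgeR adjusted p = 0.493) and 0.43 with library size scaling, where it passed the test. The phosphate carrier Slc25a3 ran from 151 through 221 to 267 CPM in WT and from 201 through 218 to 241 CPM in KO. Its log2 fold change was -0.02 ± 0.08 with TMM, not past the test, and 0.44 with library size scaling. In the annotation 29.0% of the exonic length of Slc25a3 is shared with an unnamed gene on the other strand, and whether counting used strand is not given.

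Slc25a4, the ADP/ATP carrier of heart and skeletal muscle, was named after its values had been seen, because its edgeR call changed without WT_389 and WT_441. It was at 46.6 CPM in WT_389 and 15.2 CPM in WT_441. The other 8 WT mice ran from 3.55 to 7.14 CPM, 5.05 ± 1.26 (SD), and the 10 KO mice from 6.44 to 24.9 CPM, 14.9 ± 5.16. With all mice the log2 fold change was 0.52 ± 0.44 (edgeR adjusted p = 0.314), while the authors' deposited table, made with another test (ROTS), gives 0.91 with a false discovery rate of 0.00301. Without WT_389 it was 1.26 (adjusted p = 0.000484), and without both mice 1.55 (adjusted p = 4.84e-06). The ratio of Slc25a4 to Slc25a5 was higher in KO by 1.07 on the log2 scale with all mice (adjusted p = 0.037, two-sided permutation test over the 11 pairs) and by 1.58 (adjusted p = 0.00055) without the 2 mice. With all mice that call was lost when any 1 of 13 mice was left out, with adjusted p up to 0.069. Both carriers are close in sequence and multi-mapping fragments were counted, and how fragments that fit both were assigned is not given.

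**Figure D3:**
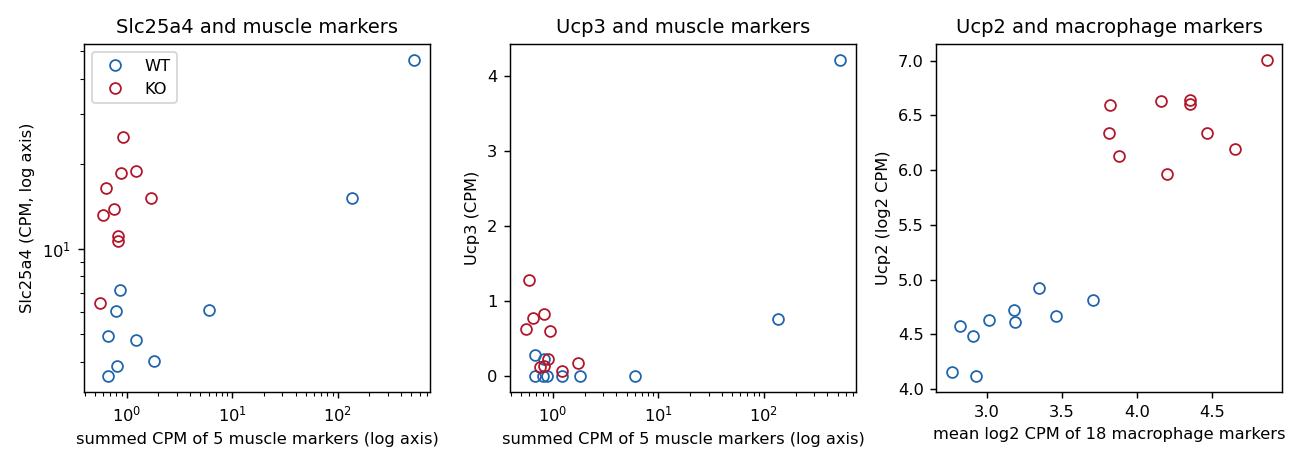
Left and centre: Slc25a4 (CPM, log axis) and Ucp3 (CPM) against the summed CPM of 5 skeletal muscle markers (log axis). Right: Ucp2 against the mean of 18 macrophage markers, both in log2 CPM. Each point is a mouse, blue for WT and red for KO (n = 10 each). WT_389 and WT_441 lie far to the right with 532 and 137 CPM of muscle markers, and the KO mice lie above the WT mice for Ucp2 throughout.

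The remaining members of this class were near silent. Slc25a31, the ADP/ATP carrier of testis, had 21 fragments in WT and 24 in KO. Slc25a41 had 0 in WT, which allows up to 0.0154 CPM over the group, and 1 in KO. Slc25a43, whose substrate is not known, had 11 fragments in WT and 40 in KO, a log2 fold change of 1.39 without the filter (edgeR adjusted p = 0.066). Without WT_389 and WT_441 it was 1.63 (adjusted p = 0.0396).

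Di- and tricarboxylate carriers feed citrate, malate and related acids across the membrane. Of 6 tested, 4 were lower with TMM, against 31.0% of all tested genes. With library size scaling 3 were higher and 1 lower, against 68.4% and 6.71% of all tested genes. Slc25a21, the carrier of oxoadipate and oxoglutarate in the breakdown of lysine and tryptophan, ran from 8.49 through 11.2 to 17.3 CPM in WT and from 4.01 through 5.82 to 8.50 CPM in KO. The groups touched only at WT_441 and KO_391, the lowest WT and the highest KO mouse. It fell 2.12-fold, by 1.08 ± 0.16 on the log2 scale (edgeR adjusted p = 3.83e-06), and by 0.60 with library size scaling (adjusted p = 0.000309).

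Slc25a11, the oxoglutarate carrier of the malate-aspartate shuttle, ran from 49.0 to 58.6 CPM in KO and from 60.9 to 73.8 CPM in WT, without overlap. All KO below all WT was seen for 6.47% of tested genes and for 2 members. The log2 fold change was -0.31 ± 0.05 with TMM and 0.16 with library size scaling, where the direction turned. Its ratio to Slc25a10, the dicarboxylate carrier, does not depend on scaling and was lower in KO by 0.36 on the log2 scale (adjusted p = 0.00044, two-sided permutation test over the 11 pairs). Slc25a10 itself and the citrate carrier Slc25a1 had log2 fold changes of 0.05 and -0.09 and did not pass the test with TMM. With library size scaling they were at 0.52 and 0.38 and were called higher. Slc25a34 and Slc25a35, whose substrates are less certain, had log2 fold changes of -0.61 and -0.78 with TMM and of -0.14 and -0.31 with library size scaling, past the test in the first only. In Slc25a35, 1.59% of the length is shared with Rangrf on the other strand.

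The aspartate and glutamate carriers supply aspartate to the urea cycle and glutamate to the matrix. Slc25a22, the glutamate carrier, ran from 285 through 428 to 601 CPM in WT and from 152 through 238 to 379 CPM in KO, with overlap. It was lower by 0.78 ± 0.16 on the log2 scale with TMM (edgeR adjusted p = 0.000237) and had a value of -0.32 (adjusted p = 0.0527) with library size scaling. Slc25a13 (citrin, the aspartate/glutamate carrier of liver) had log2 fold changes of -0.48 with TMM, past the test, and -0.03 with library size scaling. Its ratio to Slc25a12, the form of muscle and brain, was lower in KO by 0.36 (adjusted p = 0.00712, two-sided permutation test over the 11 pairs). Slc25a12 and Slc25a18 had log2 fold changes of -0.14 and -0.64 and did not pass the test with TMM. With library size scaling Slc25a12 was called higher, at 0.32, and Slc25a18 was not called, at -0.18.

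Among the other amino acid carriers and their relatives, 4 of 6 tested were lower and 1 higher with TMM, against 31.0% and 28.2% of all tested genes. With library size scaling 1 was lower and 1 higher, against 6.71% and 68.4% of all tested genes. Slc25a47, made almost only in liver, was the most abundant member of the family (Entrez gene 104910, mm10 chromosome 12, 108851129 to 108856815, 6 exon blocks). It ran from 564 through 664 to 823 CPM in WT and from 297 through 463 to 548 CPM in KO, without overlap. The log2 fold change was -0.60 ± 0.10 with TMM (edgeR adjusted p = 4.05e-05) and -0.14 (adjusted p = 0.226) with library size scaling. Its neighbour Slc25a29, a carrier of basic amino acids 15252 bases away, fell by 0.94 ± 0.21 with TMM (adjusted p = 0.000612) and by 0.47 (adjusted p = 0.0447) with library size scaling. Slc25a45, a relative, had -0.78 with TMM and -0.30 with library size scaling. The glycine carrier Slc25a38, which serves the first step of haem synthesis, had -0.34 with TMM and 0.13 with library size scaling. The branched-chain amino acid carrier Slc25a44 rose by 0.24 ± 0.08 (edgeR adjusted p = 0.015), and its adjusted p was 0.0546 without WT_389 and WT_441. Slc25a48 had a log2 fold change of -0.60 ± 0.29 and did not pass the test. Slc25a2, an ornithine carrier, was not tested, with 44 fragments in WT and 82 in KO.

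Of 12 carriers of cofactors, nucleotides and glutathione 2 were higher and 5 lower with TMM, against 28.2% and 31.0% of all tested genes. With library size scaling 5 were higher and 0 lower, against 68.4% and 6.71% of all tested genes. Slc25a26, which brings the methyl donor S-adenosylmethionine into the matrix, rose by 0.44 ± 0.07 (edgeR adjusted p = 1.39e-05), and Slc25a33, a pyrimidine nucleotide carrier, rose by 0.28 ± 0.08 (adjusted p = 0.00738). In Slc25a26, 6.61% of the length is shared with Lrig1 on the other strand. Among the lower members were Slc25a51 (NAD+), Slc25a53 (unknown substrate), Slc25a42 (coenzyme A) and its relative Slc25a16, with log2 fold changes of -0.83, -0.55, -0.45 and -0.43. With library size scaling these 4 lay between -0.37 and 0.04 and did not pass the test. Slc25a53 had 153 fragments in all WT mice, and its call was lost without any 1 of 9 mice, with adjusted p up to 0.0786. Slc25a39, the main glutathione carrier, ran from 319.4 through 366.5 to 408.2 CPM in WT and from 341.5 through 389.4 to 405.6 CPM in KO. Its log2 fold change was 0.05 ± 0.05 and did not pass the test with TMM, and it was 0.52 and called higher with library size scaling. Slc25a17, Slc25a32, Slc25a36 and Slc25a40 lay between -0.13 and 0.03 with TMM and did not pass the test. With library size scaling they lay between 0.34 and 0.48, and Slc25a17 and Slc25a40 were called higher.

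Both mitoferrins, which import iron for haem and iron-sulphur clusters, were higher. Slc25a37 rose by 0.43 ± 0.09 on the log2 scale (edgeR adjusted p = 0.000184) and Slc25a28 by 0.19 ± 0.06 (adjusted p = 0.0101). Slc25a37 is also the erythroid form. Of 5 tested erythroid markers 2 were lower with TMM, against 31.0% of all tested genes. The 7 with counts summed to 66.0 to 237 CPM in KO and 191 to 588 CPM in WT. The ratio of Slc25a37 to Slc25a28 was higher in KO by 0.26 (adjusted p = 0.00825, two-sided permutation test over the 11 pairs). Slc25a46, a family member of the outer membrane involved in fission, had log2 fold changes of -0.24 with TMM and 0.23 with library size scaling, past the test in both and opposite in direction.

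**Figure D4:**
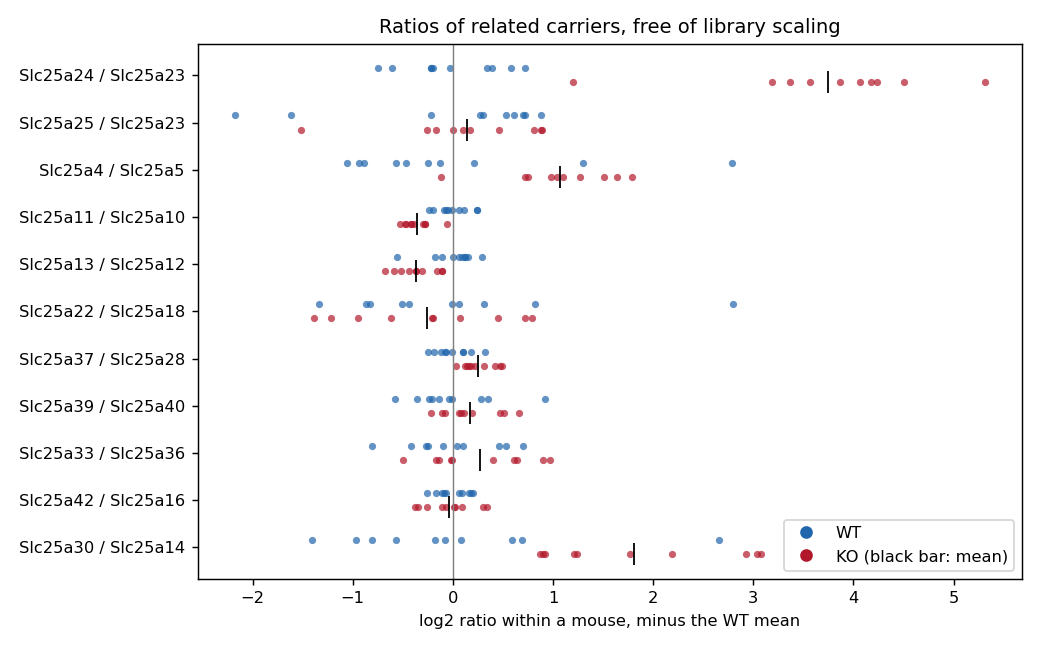
Log2 ratio of 2 related carriers within each mouse, after subtracting the mean of the WT mice, for the 11 pairs. Blue points are WT mice, red points KO mice and black bars KO means (n = 10 each). The ratio of Slc25a24 to Slc25a23 stands apart at 3.75 without overlap, and that of Slc25a11 to Slc25a10 lies 0.36 below WT.

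The remaining pair ratios are given for completeness. The ratio of Slc25a30 to Slc25a14 was higher in KO by 1.81 (adjusted p = 0.00576, two-sided permutation test over the 11 pairs). The ratios of Slc25a22 to Slc25a18, Slc25a39 to Slc25a40, Slc25a33 to Slc25a36 and Slc25a42 to Slc25a16 differed by -0.25, 0.17, 0.27 and -0.04, with adjusted p of 0.734, 0.441, 0.355 and 0.745. In all, 6 of the 11 pairs passed the test. The share of other gene pairs that would pass was not computed, so this count has no background to stand beside. Of all tested genes 59.2% were called with TMM.

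Levels of different genes were compared per length, in the authors' RPKM. In WT liver the family was led by Slc25a47 at 433.7 ± 58.8 RPKM (SD, n = 10), then Slc25a5 at 277 ± 21.9, Slc25a39 at 219 ± 16.1, Slc25a22 at 152 ± 33.7 and Slc25a3 at 147 ± 23.6 RPKM. The last 2 did not differ beyond their spread. In KO liver Slc25a47 at 287 ± 53.5 RPKM and Slc25a5 at 269 ± 18.5 RPKM were within their spread of each other, and Slc25a22 moved from place 4 to place 6 at 88.7 ± 26.2 RPKM. Slc25a24 moved from place 40 of 47 to place 28, at 4.35 RPKM, and Ucp2 from place 25 to 15. The 5 members highest in WT held 63.5% ± 1.3 of the summed family RPKM in WT and 60.8% ± 2.0 in KO. They were chosen by their WT level, so these shares cannot compare how concentrated the family is. As a share of that sum, which is free of library scaling, Slc25a47 was at 22.4% ± 1.9 in WT and 17.1% ± 2.5 in KO, and Slc25a39 at 11.3% ± 0.6 and 13.7% ± 1.4. The whole family's share of assigned fragments was 0.341% ± 0.034 in WT and 0.401% ± 0.016 in KO, while its summed TMM-scaled RPKM was 1933 ± 151 in WT and 1671 ± 113 in KO.

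**Figure D5:**
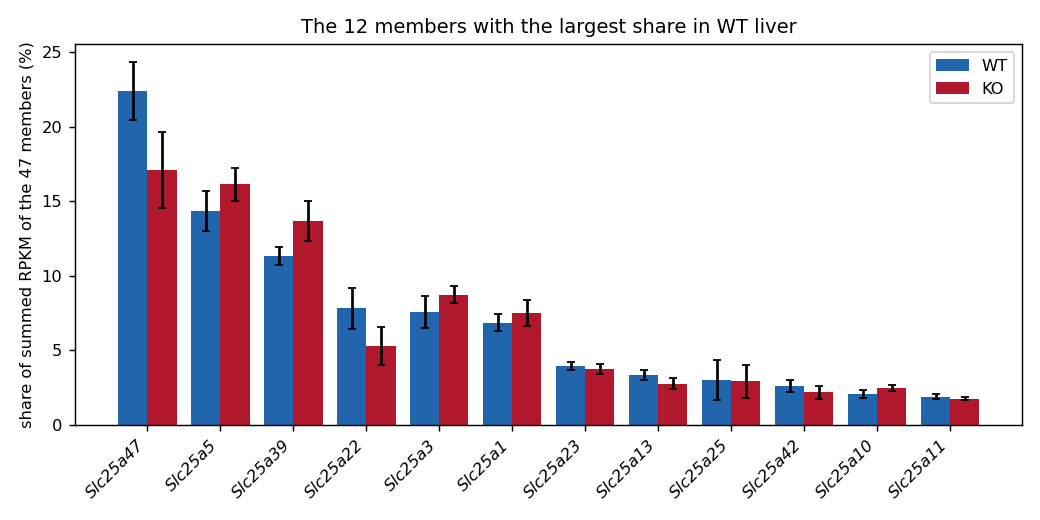
Share of the summed RPKM of the 47 members held by the 12 highest members in WT, as mean with SD bars (n = 10 each), blue for WT and red for KO. Slc25a47 had 22.4% in WT and 17.1% in KO, and Slc25a5, Slc25a39 and Slc25a3 had larger shares in KO.

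Genes that work with the carriers were counted from lists, with TMM unless stated. The counts stand beside 28.2% of all tested genes higher and 31.0% lower with TMM, and 68.4% and 6.71% with library size scaling. Of 13 genes for import of carrier proteins 1 was higher and 6 lower, led in adjusted p by the intermembrane chaperones Timm8a1 and Timm9, which fell by 0.69 and 0.67 on the log2 scale (library size -0.22 and -0.20), and Tomm40 with -0.38 (library size 0.08). Of these 13, 10 were higher and 2 lower with library size scaling. Of 13 other inner membrane transporters 3 were higher and 5 lower, and 9 were higher and 0 lower with library size scaling. The calcium uniporter regulator Micu2 rose by 0.70, and the amino acid transporter Sfxn2 had -0.62 (library size -0.16). Of 5 outer membrane channels and carrier homologues 3 were lower, Vdac2, Mtch1 and Mtch2, with -0.25, -0.25 and -0.18, and all 5 were called higher with library size scaling.

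Of 6 shuttle enzymes 1 was higher and 3 lower, and with library size scaling 3 were higher and 1 lower. Mdh1, the cytosolic malate dehydrogenase, fell by 0.77 with TMM and 0.31 with library size scaling. Got2 had -0.31 with TMM and 0.16 with library size scaling, and Mdh2 rose by 0.17. Of 8 genes that make or use citrate 5 were higher (8 with library size scaling) and 0 lower. The citrate carrier Slc25a1 was not called with TMM and was called higher with library size scaling, at 0.38. Fasn, Acaca and Cs, the fatty acid synthase, acetyl-CoA carboxylase and citrate synthase, rose by 2.22, 1.24 and 0.78. Of 8 haem and iron-sulphur genes 0 were higher and 3 lower, and with library size scaling 7 were higher and 0 lower. Among the lower genes with TMM were Fech and Iscu, with -0.35 and -0.16 (library size 0.11 and 0.32). Of 12 genes of mitochondrial structure 1 was higher (Samm50, 0.29) and 7 lower, led in adjusted p by Timm23 with -0.38 and Phb2 with -0.40 (library size 0.09 and 0.07). Of these 12, 10 were higher and 0 lower with library size scaling. Of 20 PPAR-alpha targets 15 were higher and 3 lower, and 18 were higher and 0 lower with library size scaling. The smallest adjusted p were those of Ehhadh, Acot2 and Cidec, with log2 fold changes of 2.93, 4.05 and 3.78, and the largest rise was that of Cyp4a14 with 4.82.

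Markers of other liver cells were counted in the same way, with TMM unless stated. With TMM 28.2% of all tested genes were higher and 31.0% lower, and with library size scaling 68.4% and 6.71%. Of 10 resident macrophage markers 7 were higher, with a summed level of 299 to 585 CPM in KO and 159 to 330 CPM in WT. All 8 markers of lipid-associated macrophages were higher, with 206 to 500 CPM in KO and 89.1 to 192 CPM in WT. Stellate cell markers were higher in 6 of 8 (274 to 512 against 153 to 303 CPM) and endothelial markers in 3 of 7 (208 to 264 against 142 to 273 CPM), which became 5 without WT_389 and WT_441 and 7 with library size scaling. Biliary markers were higher in 2 and lower in 1 of 5 tested (48.8 to 189 against 24.1 to 56.2 CPM). Most of that sum was Spp1, with a mean of 76.6 of 85.6 CPM in KO and 31.0 of 42.5 CPM in WT. The lower marker was Sox9, with a mean of 4.96 CPM in KO and 8.56 CPM in WT. The biliary sum therefore does not show a rise of biliary RNA. Lymphocyte and neutrophil markers summed to 2.38 to 16.4 CPM in KO and 2.02 to 12.1 CPM in WT, and the 4 tested did not pass the test. Fat markers summed to 0.596 to 2.05 CPM in KO and 0.306 to 13.6 CPM in WT, highest in WT_389, and the 1 tested was higher in KO. The 1 tested muscle marker, Mylpf, was at 45.8 CPM in WT_389 and 9.91 CPM in WT_441, from 0.673 to 1.81 CPM in the other 8 WT mice and from 0.494 to 1.09 CPM in KO. It was called lower in KO with all mice, with a log2 fold change of -3.10 (edgeR adjusted p = 0.00391). Without those 2 mice it was -0.34 (adjusted p = 0.258, fitted with no filter) and did not pass the test. Myh4 was at 0 in all KO mice and present in 4 WT mice. No list had a marker at 0 in all mice. All 10 hepatocyte markers were lower with TMM, and with library size scaling 1 was higher and 4 lower.

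The biliary and lipid-associated macrophage lists share Spp1. Ucp2 is expressed in macrophages as well as hepatocytes, so its level was set against the macrophage markers within each genotype, where Cre does not differ. In WT mice Pearson's r was 0.72 (adjusted p = 0.0742) and Spearman's rho 0.81 (adjusted p = 0.029), by two-sided permutation over 4 relations. Without the 2 mice farthest from the median of the markers r was 0.78 (adjusted p = 0.0932, permutation). The Pearson call depended on how the two-sided p is defined: doubling the smaller tail in place of comparing absolute values gave an adjusted p of 0.0354. In KO mice r was 0.37 (adjusted p = 0.598) and rho 0.32 (adjusted p = 0.495), and r was -0.07 without the 2 farthest mice. Against PPAR-alpha targets r was -0.22 in WT (adjusted p = 0.726) and -0.06 in KO (adjusted p = 0.858), with rho of -0.42 and -0.24 (adjusted p = 0.463 and 0.513). The part of macrophage RNA in the genotype difference of Ucp2 was not tested.

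The authors' deposited table listed 39 of the members, 6 of them higher and 13 lower at a false discovery rate under 0.05, against 40.9% of the listed genes called in either direction. Of 24 members called by edgeR that the authors' deposited table holds, 17 were called in the same direction there. Slc25a11, Slc25a23, Slc25a28, Slc25a33, Slc25a38, Slc25a44 and Slc25a46 were not, with ROTS false discovery rates of 0.0522 to 0.195. Slc25a4 and Slc25a48, not called by edgeR with all mice, were called there, with ROTS false discovery rates of 0.00301 and 0.0369. The authors' deposited table gives log2 fold changes of 1.84 for Ucp2, 2.69 for Slc25a24, 1.39 for Slc25a30 and -0.94 for Slc25a21.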

How the data were processed

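Total liver RNA of 20 mice was sequenced as paired-end fragments, and genotype was taken from the labels. The authors deposited raw counts per Entrez gene. Deposited file names point to Rsubread with RefSeq mm10. HISAT2 2.0.5 and DESeq2 are the tools in the submitters' processing notes. Whether counting used strand is not given in the sources. The authors counted multi-mapping fragments, which made up 3.32% ± 1.89 of fragments in KO and 9.68% ± 3.71 in WT (SD). The authors' deposited normalized signal equalled CPM over the TMM library size on all genes, and the deposited RPKM is that signal per kilobase. In the authors' deposited ROTS table each gene has a log2 fold change, p-value and false discovery rate. Of the deposited statistics tables, 22 columns of per-sample values were not used.

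Counts were tested with edgeR 4.0.16 in R 4.3.3: filterByExpr (minimum count 10, minimum total 15) kept 13670 of 20914 genes, TMM factors were computed on these, and a robust quasi-likelihood F test was adjusted by Benjamini-Hochberg at 0.05. SE is the log2 fold change over the square root of F. TMM factors were first computed over all genes, and the order was changed after the first values were seen. CPM here use the filtered factors and RPKM the authors' own. A prior count of 2 was used for log2 CPM and pair ratios used a pseudocount of 0.5 fragments. Permutation tests had 100000 resamples (Python 3.11.15, SciPy 1.17.1), and comparing absolute values replaced doubling the smaller tail after first values were seen. The main edgeR fit, the DESeq2 Wald test, voom and a limma-trend fit were tested on simulated data. The other settings and the permutation tests were not simulated. Few genes changed in the simulation, unlike in these data, so it cannot test the TMM assumption. The members and gene lists were chosen with earlier results of these data known. Named with full values were the uncoupling proteins, members changed at least 2-fold and the 5 members highest in WT. Of each partner list up to 3 genes with the smallest adjusted p were named. Some genes that met these rules are counted but not reported here by name. Alternatives were library size, DESeq2 1.42.0 size factors and Wald test, upper-quartile factors, no filter, a stricter filter (CPM of 1 in 10 mice), limma 3.58.1 voom and trend fits, and leaving out each mouse. Leaving out WT_389 and WT_441, or these with KO_391, was added after seeing the data. Mice are labelled as separate samples, and no litter, batch or date is given. A count of 0 allows up to 3 fragments.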

Additional observations from a re-analysis of the deposited data

Results flagged for a closer look

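In each genotype the 10 values of every tested member were searched for a mouse far from the rest, by the gap to its neighbour as a share of the whole range on the log2 CPM scale, against a critical value of 0.466. Of 82 groups 8 passed, and chance flags about 1 in 20 groups. KO_391 passed for Slc25a24, as the lowest KO mouse (0.478, 2.62 against 8.78 CPM), and for Slc25a42, as the highest (0.504, 188 against 127 CPM). WT_406 was the lowest WT mouse for Slc25a3 (0.491, 151 against 200 CPM) and for Slc25a48 (0.499, 1.27 against 3.42 CPM). WT_389 was the highest WT mouse for Slc25a26 (0.534, 11.5 against 9.92 CPM). WT_409 was the lowest for Slc25a14 (0.523, 1.53 against 2.10 CPM), WT_429 the lowest for Slc25a18 (0.581, 0.0976 against 0.536 CPM) and KO_414 the lowest KO mouse for Slc25a25 (0.499, 56.2 against 143 CPM).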

How the results depend on the processing

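Counts of 8 higher and 17 lower members became 20 and 2 with library size scaling, and the members' median went from -0.24 to 0.23. With each mouse left out in turn there were 8 to 9 higher and 16 to 18 lower members, with a median of -0.26 to -0.16. All 25 calls were kept in direction with TMM over all genes, upper-quartile factors, DESeq2 size factors, the DESeq2 Wald test and voom. With no filter and with both limma-trend fits 24 of 25 were kept, and without WT_389 and WT_441, with or without KO_391, 23. The call for Slc25a53 was lost in each of these, and that for Slc25a44 where mice were left out. The stricter filter left 38 members, with 23 calls, all kept. No paired analysis was possible because KO and WT mice share no replicate number, litter or batch in the labels.

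With library size scaling 15 of the 25 calls were lost or turned, 9 of them lost with the same sign. These are not the 15 members whose sign changed. Of those only Slc25a11, Slc25a16, Slc25a23, Slc25a38, Slc25a42 and Slc25a46 were called with TMM. The sign changed for Slc25a16 (0.036), Slc25a3 (0.44), Slc25a11 (0.16), Slc25a17 (0.42), Slc25a1 (0.38), Slc25a23 (0.18), Slc25a46 (0.23), Slc25a25 (0.18), Slc25a12 (0.32), Slc25a40 (0.34), Slc25a42 (0.012), Slc25a36 (0.44), Slc25a38 (0.13), Slc25a5 (0.43) and Slc25a14 (0.13). With that change of scaling the median over all tested genes moved from -0.02 to 0.44. Why the scalings differ was not tested.

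With the other settings, sign changes were of members near 0 that did not pass the test with TMM. Slc25a3 was at 0.00034 with DESeq2 size factors, 0.00024 with the DESeq2 Wald test, 0.0084 with voom, 0.0028 and 0.0027 with the trend fits, 0.00088 without WT_389 and WT_441 and 0.0023 also without KO_391. Slc25a36 was at 0.0031, 0.0032 and 0.041 with the first 3 of these settings, 0.0061 with the first trend fit, and 0.18 and 0.20 with the mice left out. Slc25a10 was at -0.013 and -0.011 with those mice left out, and Slc25a32 at -0.047 without all 3. Leaving out single mice gave ranges of -0.069 to 0.020 for Slc25a3, -0.055 to 0.17 for Slc25a32, -0.073 to 0.0022 for Slc25a17, -0.033 to 0.19 for Slc25a27, -0.082 to 0.095 for Slc25a36 and -0.066 to 0.00021 for Slc25a5.

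The ratio of Slc25a25 to Slc25a23 ranged from -0.10 to 0.32 over single mice left out, turning without WT_406 or WT_407. That of Slc25a22 to Slc25a18 ranged from -0.40 to 0.056, turning without WT_429, and that of Slc25a4 to Slc25a5 from 0.95 to 1.38. The relation of Ucp2 to macrophage markers in WT (r = 0.72) passed the test with p as double the smaller tail (adjusted p = 0.0354, permutation) and with library size scaling (r = 0.82, adjusted p = 0.0156, permutation). In KO it went from 0.37 to -0.075 without the 2 farthest mice. The relation to PPAR-alpha targets turned to 0.32 in KO without the 2 farthest mice, and to 0.15 in KO and 0.13 in WT with library size scaling.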
